A study of Homo sapiens with 6 samples.

Results

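The back-spliced circular RNAs (circRNAs) of 2 host genes of nuclear transport are described here, 15 from XPO1 and 4 from NUP54, or 19 of the 4814 circRNAs listed in all. A row belonged to the set when the authors' annotation gave XPO1 or NUP54 as its host gene. The study sequenced circRNAs of the human endometrial carcinoma line Ishikawa in 3 libraries of cells treated with MPA and 3 libraries of untreated control cells. Neither the dose nor the duration of treatment was stated in the labels, which did not spell out MPA. Nor did they say whether the libraries of a group were separate cultures, and the spread on which the p-values rest may therefore be technical. Both hosts were chosen by values measured in these same libraries, XPO1 because hsa_circ_0001017 was among the most read circRNAs and NUP54 because hsa_circ_0070039 had a small p between the groups. Those values are therefore given as a description.

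XPO1, also called CRM1, is the export receptor that binds proteins with a leucine-rich nuclear export signal together with Ran-GTP and carries them through the nuclear pore to the cytoplasm. NUP54 is a nucleoporin with phenylalanine-glycine repeats that sits with NUP62 and NUP58 in the central channel of the pore, through which such receptors pass. A circRNA forms when the spliceosome joins the 3′ end of an exon (the donor side) to the 5′ start of the same or an upstream exon (the acceptor side), and reads across that back-splice junction distinguish it from the linear mRNA. The junction reads say nothing about the linear mRNA or the protein of either gene.

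All 19 circRNAs were classed as exonic and lay on the minus strand of chromosomes 2 (XPO1) and 4 (NUP54), and 18 had a circBase identifier. Each had the genomic span and the predicted length of a single run of consecutive exons in the GENCODE 29 form of the transcript that the authors named for it (25 exons in XPO1, 12 in NUP54). The match used spans and lengths only, because the table is on hg19 and the annotation on GRCh38. The junctions of some of the more read circles, without hsa_circ_0001016, are shown so that these isoforms can be told apart. They were read from the GENCODE 29 transcripts (GRCh38, minus strand), 5′ to 3′, with the last 15 bases of the donor exon in lower case and the first 15 bases of the acceptor exon in capitals.
hsa_circ_0001017, XPO1 exon 4 to exon 2: ggaaccagtgcgaagTAATCTATGCCAGCA
hsa_circ_0005050, XPO1 exon 20 to exon 17: aatatgataaataagGTTCATACGTTTTAT
hsa_circ_0002607, XPO1 exon 22 to exon 17: cttcacatactgctgGTTCATACGTTTTAT
hsa_circ_0070039, NUP54 exon 5 to exon 2: attgccagatgatcaGTGGGTTTGGAGGAT
hsa_circ_0070033, NUP54 exon 9 to exon 2: catagaactttacagGTGGGTTTGGAGGAT
The exon 17 pair of XPO1 and the exon 2 pair of NUP54 each share their acceptor side. In hsa_circ_0001017 the XPO1 start codon lies 6 bases after the junction. The smallest circle, hsa_circ_0001016, is coding sequence throughout and is contained whole in hsa_circ_0001017.

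The XPO1 circles used 8 acceptor exons and 10 donor exons, but most reads came from a single corner of the gene. The donor of exon 4 carried 159 of the 222 XPO1 reads (71.6%), split between hsa_circ_0001017 (exons 2 to 4, 307 bases, chr2:61749746-61761038) with 117 reads and hsa_circ_0001016 (exons 3 to 4, 175 bases, chr2:61749746-61753656) with 42. These were 52.7% and 18.9% of the XPO1 reads (exact 95% intervals 45.9% to 59.4% and 14.0% to 24.7%, which cover counting error only). A further group of 5 circles shared the acceptor of exon 17 and ended at exon 19, 20, 22, 23 or 24, and together held 33 reads (14.9%). The most read of these, hsa_circ_0005050 (exons 17 to 20, 621 bases, chr2:61712903-61717911), had 13 reads. The acceptor of exon 3 was also joined to exon 6 and to exon 19, with 2 reads each. The exon 3 to 6 circle, chr2:61729131-61753656, had no circBase identifier, and the exon 3 to 19 circle, hsa_circ_0120667, was the longest member at 2187 bases. No circle contained exon 1 or exon 25. Of the 3879 exonic circRNAs of the series with assigned exons, only 0.0773% contained a first or last exon. Apart from hsa_circ_0001017, no XPO1 circle contained exon 2.

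**Figure D1:**
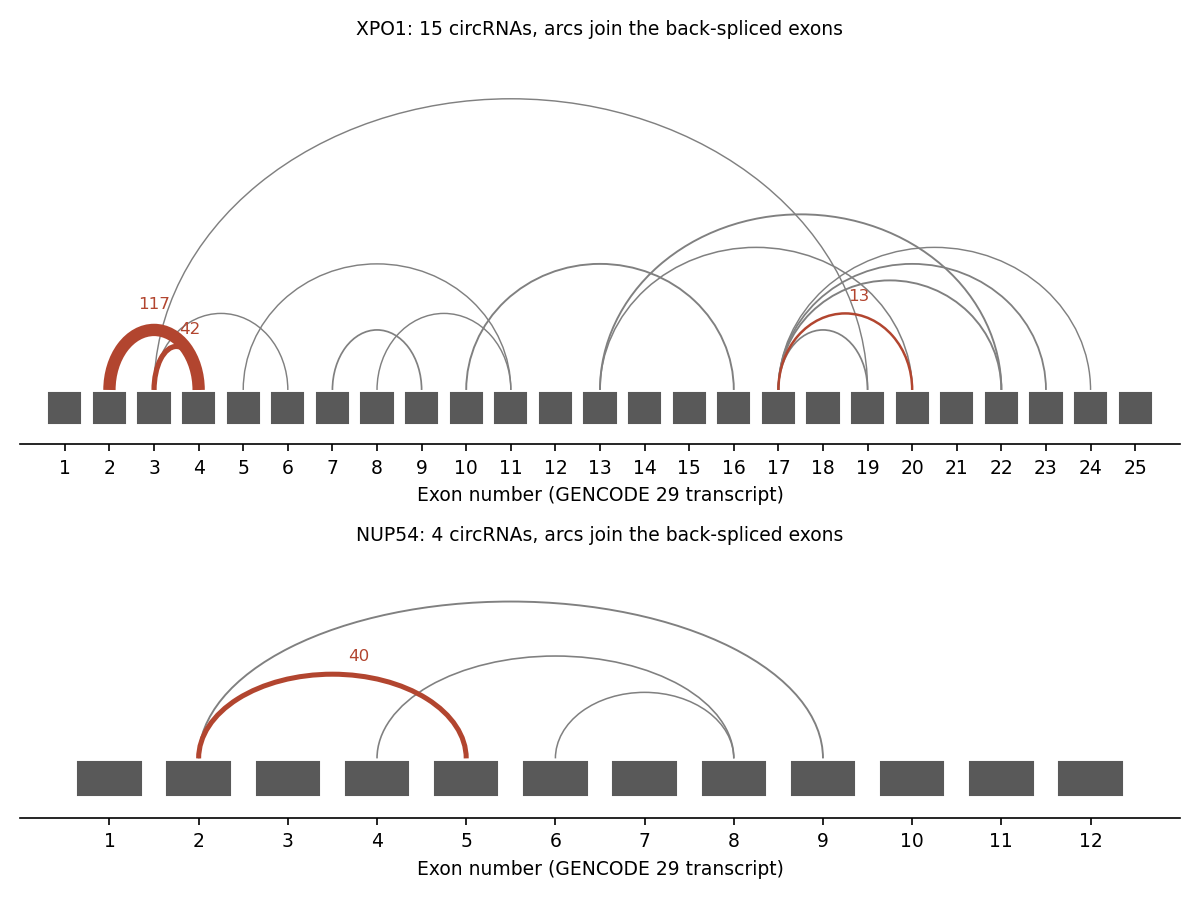
Exon numbers run along the horizontal axis, each arc joins the first and the last exon of 1 circRNA, and line width grows with the reads over the 6 libraries; arcs with at least 10 reads are in red with their read number. In XPO1 (top) the 117 and 42 reads of the circles ending at exon 4 stand beside thin arcs that fan out from exon 17, and in NUP54 (bottom) 40 reads join exon 5 to exon 2.

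In NUP54 the acceptor of exon 2 took 47 of 54 reads (87.0%). It was joined to exon 5 in hsa_circ_0070039 (643 bases, chr4:77055328-77065626), with 40 reads or 74.1% of the host (exact 95% interval 60.3% to 85.0%), and to exon 9 in hsa_circ_0070033 (1097 bases, chr4:77045802-77065626), with 7 reads. The remaining pair shared the donor of exon 8, hsa_circ_0008128 (exons 4 to 8, chr4:77051809-77057565) with 4 reads and hsa_circ_0005071 (exons 6 to 8, chr4:77051809-77053872) with 3. Exons 10 to 12 were in no circle. The NUP54 start codon is in exon 1, so no NUP54 circle contained it.

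The exon 4 donor of XPO1 borders the longest intron of the transcript, at 20300 bases in GRCh38, against a median of 1262 over its 24 introns. The introns before exons 2 and 3 measured 3658 and 7250 bases and ranked 4 and 2 by length. By contrast, the introns beside hsa_circ_0005050 measured 1258 bases before exon 17 and 1662 bases after exon 20. Among the 3879 exonic circRNAs of the series whose exons could be assigned in the same way (90.1% of 4303), the median intron before a circle was 6491 bases and the median intron after it 5730 bases. The intron after exon 4 was longer than 84.9% of the introns after a circle. Against the introns before a circle, that before exon 2 was longer than 34.2% and that before exon 3 longer than 53.6%. The one before exon 17 was longer than 10.7%. The 20300-base intron also lies before exon 5, where hsa_circ_0054887 (exons 5 to 11) started with 2 reads. For hsa_circ_0070039 of NUP54 the introns were 3834 bases before exon 2 and 1455 bases after exon 5. They were longer than 35.7% and 12.6% of the introns before and after a circle. The longest NUP54 intron, of 7736 bases, lies before exon 4, where hsa_circ_0008128 started with 4 reads. Of the members, 3 began at exon 2, where 29.5% of the assigned circRNAs did. The length was a multiple of 3 in 8 of the 19, against 35.7% of the assigned circRNAs. Members spanned 2 to 17 exons, with a median of 4 in the series, and none was a single exon (4.23% of the assigned circRNAs were).

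The libraries held 4339 to 5454 junction reads with MPA and 3740 to 4316 in control, so a single read weighed most in the control libraries, where 0 reads set an upper limit of 0.0802% of the library (3 counts). Sampling noise alone did not account for the differences within any pair of same-group libraries (chi-square p of at most 0.00581), and each library was counted as 1 replicate. Of markers for the cell type, only CDH1, PAX8 and EPCAM of 11 epithelial and endometrial genes hosted any circRNA, with 8 reads in all, and 0 of 13 markers of other cell types did. circRNA reads at this depth therefore gave little to check the cell line by.

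Among the XPO1 circles, the leading one, hsa_circ_0001017, had 15, 25 and 16 reads in the MPA libraries, against 25, 18 and 18 in the control libraries. The groups overlapped, and the highest value of 25 occurred once in each. The smaller hsa_circ_0001016 had 3, 15 and 8 reads with MPA, against 9, 4 and 3 in control. Its spread within the MPA group, from 3 to 15, covered the whole control range. hsa_circ_0005050 had 0, 2 and 4 reads with MPA and 5, 1 and 1 in control, so the groups overlapped here too. The 5 circles starting at exon 17 together had 4, 6 and 6 reads with MPA and 6, 6 and 5 in control.

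The other 12 XPO1 circles had 2 to 7 reads each over the 6 libraries. hsa_circ_0002607 (exons 17 to 22), with 7 reads, was read in 5 libraries. hsa_circ_0054877 (exons 10 to 16), also with 7, was read in only 2, as 0, 0 and 2 reads with MPA and 5, 0 and 0 in control. There were 5 circles with 2 reads in a single library, 3 of them in MPA library 2 and 2 in control library 1. These were also the libraries with the most XPO1 reads in their groups (52 and 50). Every circRNA listed had at least 2 reads in its highest library, so these circles lay at the lowest count listed. Of all 19 members, 26.3% were read in 1 library only and 15.8% in all 6, against 48.7% and 5.40% of the 4814 circRNAs. Both hsa_circ_0001017 and hsa_circ_0070039, by which the hosts were chosen, were read in all 6. The higher share in all 6 is therefore partly set by that choice. Summed over its circles, XPO1 had 24, 52 and 34 reads with MPA and 50, 36 and 26 in control, a mean of 36.7 ± 14.2 against 37.3 ± 12.1 (SD, n = 3 each). The libraries of a group thus differed from each other by more than the group means did.

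Of the NUP54 circles, hsa_circ_0070039 had 14, 7 and 7 reads in the MPA libraries, against 6, 4 and 2 in the control libraries. Every MPA library was above every control library in reads, as in 8.79% of the 91 circRNAs averaging 5 or more reads per library. In scaled reads (CPM, with TMM library factors) it had 3260, 1526 and 1360 with MPA, against 1532, 1057 and 471 in control. On that scale the groups overlapped, since control library 1 was above both lower MPA libraries; on it 4.4% of the 91 had every MPA library above every control library and 5.49% every MPA library below. hsa_circ_0070033 had 0, 0 and 3 reads with MPA and 1, 1 and 2 in control. hsa_circ_0008128 had 2, 1 and 0 against 0, 0 and 1, and hsa_circ_0005071 had 2, 0 and 1 against 0 in each control library. Summed, NUP54 had 18, 8 and 11 reads with MPA and 7, 5 and 5 in control. Every MPA sum was above every control sum. The same held for 8.33% of 180 host genes with a mean of at least 5 reads. Of the 694 with at least 10 reads in all, 6.05% did so. Each listed circRNA had at least 2 reads in its highest library. hsa_circ_0008128 and hsa_circ_0005071 reached 2 reads in MPA library 1 only, so they entered the sum through the MPA group. The NUP54 circles starting at exon 2 alone had 14, 7 and 10 reads with MPA and 7, 5 and 4 in control. Without the other circles the groups thus met at 7 reads, and the separation of the sums is a description only.

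**Figure D2:**
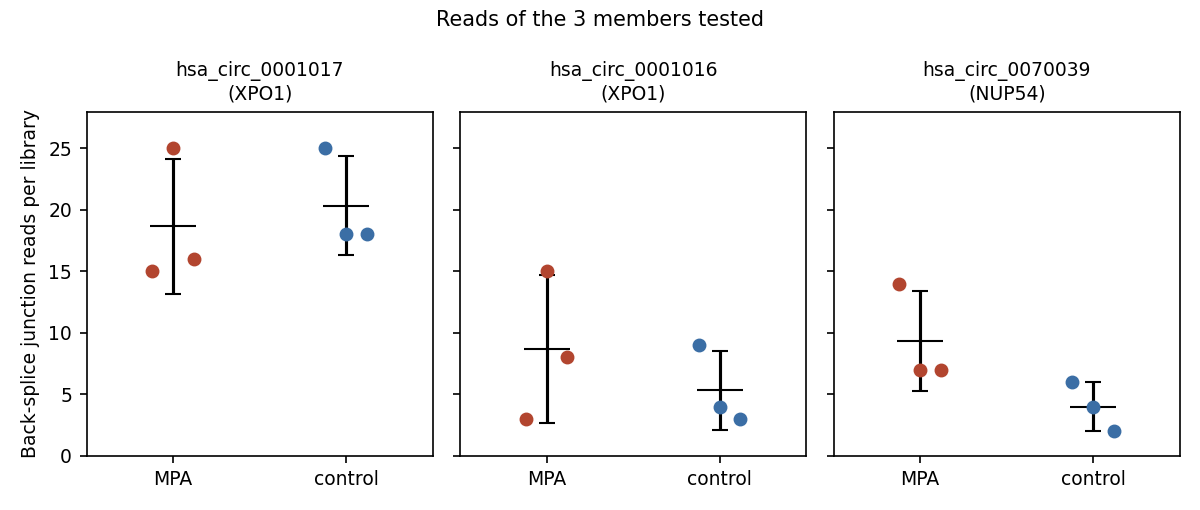
Junction reads per library (vertical axis) of the 3 members with a mean of at least 5 reads, MPA left and control right; dots are libraries, the bar is the mean and the whiskers 1 SD (n = 3). The hsa_circ_0001017 and hsa_circ_0001016 groups overlap, while the hsa_circ_0070039 reads lie at 7 to 14 with MPA and 2 to 6 in control.

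The comparison of MPA-treated with control cells asked whether any circle differed with the treatment. Only 3 of the 19 members reached that mean and could be tested, and edgeR's quasi-likelihood test over all 91 such circRNAs called none of them. It called 0% of the 91 (2 had an unadjusted p under 0.05, neither a member), and DESeq2 also called 0 (2 with an unadjusted p under 0.05). Log2 fold changes are MPA over control. For hsa_circ_0001017 the value was -0.35 (SE 0.379, 95% interval -1.10 to 0.39), and it was -0.59 without MPA library 2, -0.19 without MPA library 3 and -0.15 without control library 1. For hsa_circ_0001016 it was 0.45 (SE 0.526, 95% interval -0.58 to 1.49), and without MPA library 2 it was -0.17. For hsa_circ_0070039 it was 0.98 (SE 0.578, 95% interval -0.16 to 2.12), and 0.50 without MPA library 1, which held 14 of the 28 MPA reads, or 0.59 without control library 3. The edgeR adjusted p was 0.936 for each. The median log2 fold change of the 91 was 0.14. The intervals of hsa_circ_0001016 and hsa_circ_0070039 each included a doubling, and that of hsa_circ_0001017 reached -1.10, so differences of that size could not be told from 0 at this depth. With no filter on low reads, edgeR called 0 of the 19 members, with 0 at an unadjusted p under 0.05.

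**Figure D3:**
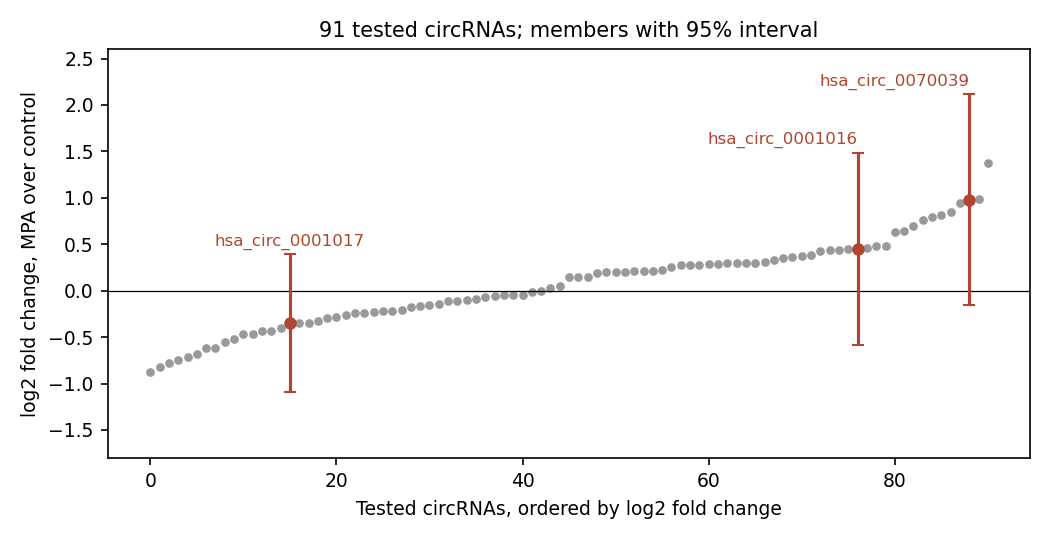
Log2 fold changes, MPA over control (vertical axis), of the 91 tested circRNAs in increasing order (horizontal axis), with the 3 tested members in red and their 95% intervals. All 3 intervals cross 0: -0.35 for hsa_circ_0001017, 0.45 for hsa_circ_0001016 and 0.98 for hsa_circ_0070039.

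At the level of host genes the picture was the same. The summed XPO1 reads had a log2 fold change of -0.22 (SE 0.303, 95% interval -0.81 to 0.37), which was -0.65 without MPA library 2 and -0.02 without MPA library 1 or without control library 1. The summed NUP54 reads had 0.89 (SE 0.548, 95% interval -0.19 to 1.96), and 0.48 without MPA library 1. That sum includes hsa_circ_0008128 and hsa_circ_0005071, which reached 2 reads in MPA library 1 only. Neither host sum passed (edgeR adjusted p = 0.946 for both), and 0% of the 180 tested host genes did (3 with an unadjusted p under 0.05, 0 with DESeq2).

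The division of a host's reads among its circles is a ratio within each library. hsa_circ_0001017 took 62.5%, 48.1% and 47.1% of the XPO1 reads in the MPA libraries, against 50%, 50% and 69.2% in the control libraries. The means were 52.5% ± 8.64 and 56.4% ± 11.1 (SD, n = 3 each), and the groups overlapped (two-sided exact permutation p = 0.5, adjusted p = 0.8 over 2 shares). Without control library 3 the difference changed sign, to 2.55 percentage points higher with MPA. hsa_circ_0070039 took 77.8%, 87.5% and 63.6% of the NUP54 reads with MPA, against 85.7%, 80% and 40% in control, on 8 to 18 and 5 to 7 reads. The means of 76.3% ± 12 and 68.6% ± 24.9 also overlapped in their libraries (two-sided exact permutation p = 0.8, adjusted p = 0.8). Here too the sign turned without control library 3, from 7.73 to -6.55 percentage points, and counting only circRNAs with at least 5 reads gave 18.1. With 3 libraries against 3 the smallest p is 0.1. Of 159 host genes with 2 or more circRNAs, a mean of at least 5 reads and a read in every library, 8.81% had leading shares that did not overlap between the groups.

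The exon 4 donor of XPO1 had a choice of acceptors, exon 2 or exon 3, and the share joined to exon 3 was 3 of 18, 15 of 40 and 8 of 24 reads in the MPA libraries, against 9 of 34, 4 of 22 and 3 of 21 in the control libraries. That is 29.2% ± 11.02 with MPA and 19.7% ± 6.22 in control (SD, n = 3 each). The groups overlapped, since MPA library 1 at 16.7% was below 2 of the control libraries (two-sided exact permutation p = 0.3, adjusted p = 0.75 over 3 shares; this measure was chosen after the reads had been seen). The difference of 9.52 percentage points was 5.35 without MPA library 2 and 15.8 without MPA library 1. In every library more reads joined exon 2 than exon 3.

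**Figure D4:**
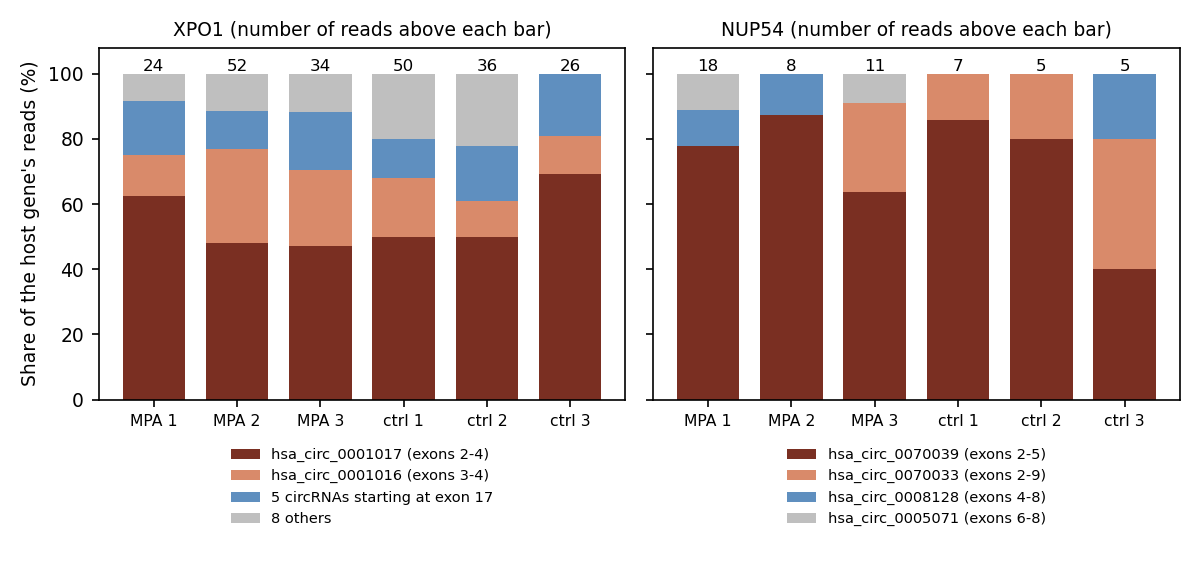
Share of the host gene's junction reads (vertical axis, %) taken by each circle or group of circles in every library (horizontal axis), for XPO1 on the left and NUP54 on the right, with the host's reads above the bars. The hsa_circ_0001017 share lies between 47.1% and 69.2% in all 6 libraries, and the hsa_circ_0070039 share between 40% and 87.5%.

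Of the 2531 host genes, XPO1 had the most reads of all (222, or 0.852% of the 26060 reads) and the third most circRNAs after UTRN with 17 and SMARCC1 with 16. The leading circle took 13.3% of the UTRN reads and 14.5% of the SMARCC1 reads, where it took 52.7% in XPO1. Of 20 host genes with at least 10 circRNAs, a minimum chosen after the values were seen, 1 had a higher leading share than XPO1, MIB1 at 62.6%. Among the 311 host genes with at least 20 reads the median leading share was 59.4%, with 129 of them below XPO1 and 198 below NUP54. NUP54 had 54 reads, and 69 host genes had more. XPO1 was chosen because its leading circle was among the most read. Its ranks in reads and in leading share are therefore partly set by that choice. The NUP54 share likewise rests on the circle by which that host was chosen, so these ranks are a description.

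**Figure D5:**
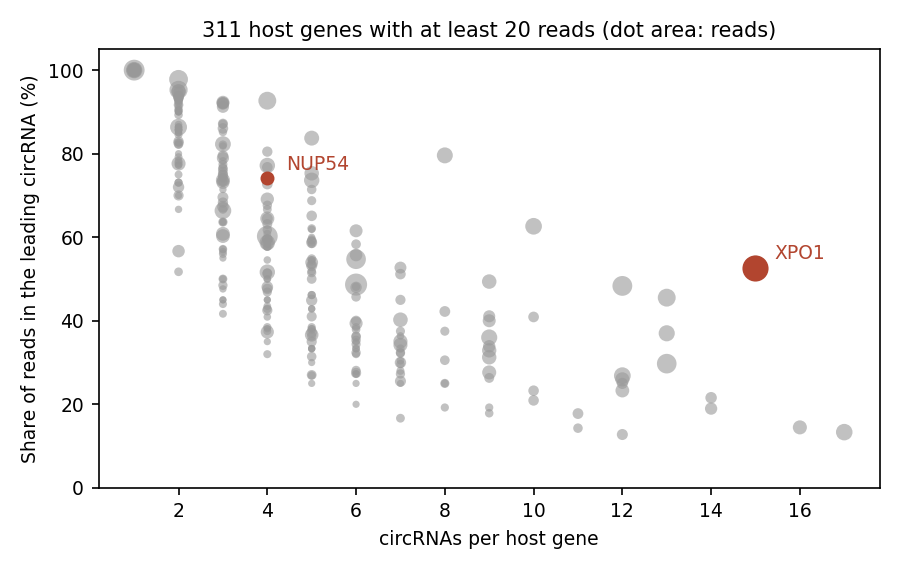
Number of circRNAs per host gene (horizontal axis) against the share of the host's reads in its most read circRNA (vertical axis, %), for the 311 host genes with at least 20 reads; dot area is proportional to reads. XPO1 stands at 15 circRNAs and 52.7%, to the right of hosts with a similar share, and NUP54 at 4 circRNAs and 74.1%.

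Besides XPO1 and NUP54, 38 of the other 80 nuclear transport genes on the 5 lists hosted circRNAs, and 3 of these reached a mean of 5 reads. edgeR called 0 of the 3 higher and 0 lower. Their median log2 fold change was 0.13, against 0.03 over all 180 host genes. More reads with MPA than in control were counted for 21 of the 38 and fewer for 12, where 55.6% and 38.4% of all host genes did so. Of 6 other exportins 4 were hosts, 1 with more and 2 with fewer reads with MPA. The most read were XPO6, an exportin for actin and profilin, with 9 reads with MPA and 9 in control, CSE1L, which returns importin alpha to the cytoplasm, with 6 and 10, and XPO5, which exports microRNA precursors, with 4 and 0. Among importins and transportins, 12 of 19 were hosts, 10 with more and 2 with fewer reads with MPA, and their sums were 135 reads with MPA and 97 in control. All circRNAs together had 14261 and 11799 reads, a ratio of 1.21. RANBP17 was counted with the importins and transportins, though it is a Ran-binding relative of the exportins. It gave 33 of the 135 reads with MPA and 26 of the 97 in control. RANBP17 had 9, 12 and 12 reads with MPA and 11, 5 and 10 in control (log2 fold change 0.13, SE 0.51, or -0.01 with MPA library 2 left out and -0.11 with control library 2 left out). TNPO3, which imports SR splicing factors, had 11, 4 and 14 against 7, 6 and 6 (0.36, SE 0.548, or 0.21, 0.68 and 0.084 without MPA library 1, 2 and 3). IPO7, an importin for ribosomal proteins, had 9 reads with MPA and 14 in control.

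Of the 30 nucleoporins other than NUP54, 19 were hosts, 9 with more and 6 with fewer reads with MPA, and their sums were 95 reads with MPA and 57 in control. NUP98, a nucleoporin with phenylalanine-glycine repeats, had 2, 9 and 4 reads with MPA and 4, 7 and 5 in control (log2 fold change -0.30, SE 0.758, which was 0.05 without MPA library 1). NUP107, of the pore's outer scaffold, had 8 and 8 reads, and NUP153, of the nuclear basket, had 4, 5 and 6 reads with MPA and 1, 0 and 0 in control. NUP155, of the inner ring, was picked out after its values were seen: it had 3, 7 and 2 reads with MPA and 0 in each control library, as 0.576% of the 694 host genes with at least 10 reads had no control read. NUP153 and NUP155 lay below the filter and did not pass without one (edgeR adjusted p = 0.657 for both). Each listed circRNA had at least 2 reads in its highest library. The circles of NUP153 and NUP155, and those of XPO5 above and THOC2 below, were thus listed through MPA libraries alone. Their low or absent control reads are therefore given as a description only. The list sums and the numbers of hosts with more or fewer reads also include circles listed through 1 group alone, of either kind. Of 18 mRNA export genes 3 were hosts, 1 with more and 2 with fewer reads with MPA: THOC2 of the THO complex with 8 reads with MPA and 0 in control, the export factor GLE1 with 2 and 3, and THOC1, also of the THO complex, with 0 and 2. None of the 7 Ran cycle genes was a host.

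The circRNAs of other hosts whose scaled levels (log2 CPM) ran most like hsa_circ_0001017 over the 6 libraries were hsa_circ_0000992 of PRKD3 (Pearson's r 0.942), hsa_circ_0002316 of OMA1 (0.829) and hsa_circ_0001573 of RREB1 (0.828), out of 89 compared. For hsa_circ_0070039 they were hsa_circ_0000268 of ZRANB1 (0.907), hsa_circ_0061261 of BAGE3 (0.905) and hsa_circ_0001725 of LMTK2 (0.8), out of 90. BAGE3 has near-identical paralogs, which leaves the origin of its reads uncertain. These are descriptions over 6 libraries that share their scaling, picked as the highest of many.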

How the data were processed

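Per the file headers, the authors deposited junction read counts, whole numbers without normalization, for each circRNA in 6 libraries; 6 further deposited columns of log2 CPM were not used. CASAVA 1.8, BWA and hg19 appear without roles in the submitters' processing notes. Which program called circRNAs, and whether library preparation removed linear RNA, was not given in the sources used here. Positions are those of the table (hg19), counted from 1.

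circRNAs, and reads summed per host gene, with a mean of at least 5 reads were tested over the whole table in edgeR 4.0.16 (R 4.3.3; TMM, group term, robust quasi-likelihood, Benjamini-Hochberg, FDR 0.05). Standard errors and 95% intervals were computed back from the quasi-likelihood test. DESeq2 1.42.0 was the other test. Simulated counts were used to check these edgeR steps. They called 13.3% of simulated 2-fold changes, 80.4% of 4-fold changes and 100% of 8-fold changes, and 0.62% of unchanged circRNAs. Most 2-fold changes were thus missed. Every simulated circRNA had the same dispersion (spread beyond sampling noise), and changed circRNAs that fell below the filter were left out of these rates. The rates for the real circRNAs may therefore be lower. Exact permutation tests (two-sided, over libraries) compared shares, which were given exact binomial intervals (Clopper-Pearson, 95%), which cover counting error only. Exons were assigned from GENCODE 29 by span and length together, with RefSeq identifiers paired through GENCODE's table. Gene lists were matched through RefSeq synonyms (GRCh38.p14). Likeness used log2 CPM with a prior count of 1. Members with at least 10 reads, the 3 most similar circRNAs and the 3 most read hosts per list were named by rule. Members sharing a back-splice end with a described one could be named too. Others with fewer reads, hsa_circ_0054877 among them, were named outside these rules. The members and lists were chosen with earlier results of these data known. The exon 3 share was added after the reads had been seen. Other steps ran in scipy 1.17.1 and pandas 2.3.3 under Python 3.11.15.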

Additional observations from a re-analysis of the deposited data

How the results depend on the processing

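No tested member passed under any alternative (library totals without TMM, DESeq2 size factors, DESeq2, a mean of at least 2 reads, no filter, the replicate block or each library left out; adjusted p from 0.545 to 0.996). Counts of called circRNAs and host genes ran from 0 to 1 with a library left out, the 1 without control library 2 being the host gene RAB3IP and a circRNA that is not from XPO1 or NUP54. Of 96 values of single circRNAs and hosts, 4 changed sign: hsa_circ_0001016 to -0.17 without MPA library 2 (-0.17 to 1.08 with a library left out), NUP98 to 0.051 without MPA library 1 (-1.10 to 0.051), and RANBP17 to -0.01 without MPA library 2 and -0.11 without control library 2 (-0.11 to 0.28). The hsa_circ_0001017 value ran from -0.59 to -0.15 and that of TNPO3 from 0.084 to 0.68 with a library left out; the cause was not tested. With a library left out, the difference in share, MPA minus control, ran for hsa_circ_0001017 between -8.84 and 2.55 percentage points, for hsa_circ_0070039 between -6.55 and 16.3 (18.1 with only circRNAs of at least 5 reads), and for the exon 3 share between 5.35 and 15.8. Deviations of same-numbered libraries correlated at -0.075, 0.155 and 0.324 over 91 circRNAs, and those of differently numbered libraries at -0.282 to 0.107. Not every library correlated best with its own number. So few correlations on low counts cannot decide whether replicate numbers pair the libraries. With the replicate block 0 circRNAs and 0 host genes were called, the log2 fold changes were -0.36 for hsa_circ_0001017, 0.41 for hsa_circ_0001016 and 0.996 for hsa_circ_0070039, and the sign-flip p of the shares was 0.75, 0.75 and 0.5 (exact; smallest possible 0.25). Of the 3 most similar circRNAs, 3 were the same with prior counts of 0.5 and 5 and 2 by Spearman rank, for both leading circles. With at least 10 or 50 reads per host gene in place of 20, the median leading share was 60% or 60.8%. Of the 19 members, 16 lay below the filter.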
